A study of Mus musculus with 8 samples.

Results

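The genes described here were matched by symbol, and most of them encode structural subunits of the mitochondrial respiratory chain. They were taken from the gene table of both libraries, with every mt-Nd, mt-Co, mt-Atp and mt-Cyt gene of the mitochondrial genome. The nuclear genes were those named Nduf with a, b, c, s or v and a number, Sdha to Sdhd, Uqcr, Cox of the families 4 to 8, or Atp5. These symbols also take in Cox7a2l, which tethers complexes to each other, and leave out respiratory genes such as Ndufab1 and Cyc1. The rule found 96 of 31053 features, 13 of them encoded by mitochondrial DNA and 83 by the nucleus. No measured value entered the rule.

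RNA was measured in single cells of the dentate gyrus of Nestin-GFP mice, in which a Nestin regulatory sequence drives the green fluorescent protein. The mice were male and 8 weeks old. They had either a sham craniotomy (Control) or a controlled cortical impact, a model of traumatic brain injury (TBI). GFP-positive cells were sorted 15 days later. The labels list 4 samples in each group, whereas the study's methods give larger and unequal numbers of animals for the 2 conditions. The animals of a group were pooled before sorting, so that the data hold 1 library per condition. All values are therefore descriptions of 2 libraries, the exact intervals given with them cover counting error only, and an effect of the injury and any other difference between the libraries cannot be told apart.

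The respiratory chain passes electrons from NADH and succinate to oxygen and uses the released energy to pump protons across the inner mitochondrial membrane, and ATP synthase lets the protons flow back to make ATP. Complex I oxidises NADH, complex II oxidises succinate, complex III hands electrons to cytochrome c, complex IV reduces oxygen and complex V is ATP synthase. Complexes I, III, IV and V are built from subunits of both genomes, whereas complex II is wholly nuclear-encoded. In the dentate gyrus the adult neural stem cells and astrocytes are known to rely more on glycolysis than the neurons that the stem cells give rise to.

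The mitochondrial-encoded genes comprised 7 subunits of complex I, 1 of complex III, 3 of complex IV and 2 of complex V. The nuclear-encoded genes, assigned to complexes by symbol, comprised 35 of complex I, 4 of complex II, 8 of complex III, 19 of complex IV and 17 of complex V. Of the 83 nuclear-encoded genes, 78 had at least 100 unique molecular identifiers (UMIs, 1 for each captured molecule) over the compared cells, and the comparisons across genes used these 78. Another 5 were the tissue isoforms Cox6a2 with 10 UMIs, Cox8b with 13, Cox7b2 with 49 and Cox8c with 0, and a second gene model of Atp5o (ENSMUSG00000116933) with 1. All 96 had a position in the GENCODE annotation of GRCm38, and 80 of the nuclear-encoded genes lay on autosomes and 3 on X.

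The mitochondrial genes lie so close together that some of them overlap, which bears on how their UMIs can be assigned. On chromosome M of GRCm38, mt-Atp8 ends at 7969 while mt-Atp6 begins at 7927, on the same strand, and mt-Nd4l ends at 10173 while mt-Nd4 begins at 10167. The 2 stretches are shown 5′ to 3′ on the plus strand, the first for 7915 to 7981 and the second for 10155 to 10185, with the bases shared by both genes in capitals.
mt-Atp8 and mt-Atp6: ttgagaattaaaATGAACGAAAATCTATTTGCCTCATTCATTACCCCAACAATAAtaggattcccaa
mt-Nd4l and mt-Nd4: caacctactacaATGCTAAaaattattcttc
The shared stretches are 43 and 7 bases long. In addition, mt-Atp6 and mt-Co3 share 1 base at 8607, and the end of mt-Nd5 lies opposite that of mt-Nd6, at 13552 to 13565. Counts of mt-Atp8 and mt-Nd4l, whose transcripts continue into their neighbours, are therefore uncertain.

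The Control library held 3086 cell barcodes with 24723113 UMIs and the TBI library 5081 barcodes with 31543330. After filtering, 3049 Control cells with a median of 6928 UMIs and 5036 TBI cells with a median of 5663 remained. Cells were clustered without the respiratory chain genes and without Malat1, and clusters were named from marker genes into 13 classes of at least 50 cells, called X-like here, which held 2632 Control and 4455 TBI cells. A fibroblast-like class of 32 cells was left out, and 404 and 562 cells stayed unnamed. The summed level of a class's own markers was highest in that class in both libraries, except for stem-like astroglia, with 3620 UMIs per 1000000 against 3815 in smooth muscle-like cells of the Control library. Nes, the gene behind the reporter, was at 443 in Control and 488 in TBI in endothelial-like cells and at 74.1 and 76.6 in RG-like cells, the radial glia-like cells. It was at 1.01 and 3.48 in oligodendrocyte-like cells, which had passed the sort. The 2 libraries shared 3 barcodes.

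The following measures were used throughout. The mitochondrial-encoded set was measured as its percentage of all UMIs except those of Malat1, a nuclear noncoding RNA. The nuclear-encoded set, and each gene of it, was measured as a level, in UMIs per 1000000 UMIs that were neither mitochondrial-encoded nor Malat1, so that a change in the first measure does not by itself move the second. Pairs of values below give the Control library first and the TBI library second.

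The share of mitochondrial-encoded RNA in the highest class was 2.28-fold that in the lowest in Control and 2.63-fold in TBI. It was highest in stem-like astroglia, at 11.3% in Control and 11.7% in TBI, and in astrocyte-like cells, at 11.2% and 10.5%. In Control, smooth muscle-like cells followed at 9.92% and oligodendrocyte-like cells at 9.24%. In TBI, oligodendrocyte-like cells followed at 7.81%, and smooth muscle-like cells, at 7.16%, were also under RG-like cells, at 7.30%. The place of astrocyte-like cells rested on 2 of their clusters, described below. Without these, and without a late neuroblast-like and a microglia-like cluster, their share was 8.37% and 7.79%, under that of oligodendrocyte-like cells in both libraries and under that of smooth muscle-like cells in Control. The lineage from radial glia-like cells to neuroblasts lay in a narrow band. Its shares were 7.12% and 7.30% in RG-like cells, 6.41% and 6.32% in cycling progenitor-like cells, 6.47% and 6.65% in early and 6.49% and 6.36% in late neuroblast-like cells. Within the vasculature, endothelial-like cells had 5.16% and 4.52% and pericyte-like cells 5.95% and 5.16%, both below the smooth muscle-like cells of the same library.

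The order of the classes was similar in both libraries, with 5 of 13 at the same rank and a Spearman correlation of 0.808 over the classes, which share their libraries. Single cells varied widely within a class. In astrocyte-like cells of the Control library the 10th and 90th percentiles were 5.24% and 23.0%, and in oligodendrocyte-like cells they were 6.93% and 12.3%.

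**Figure D1:**
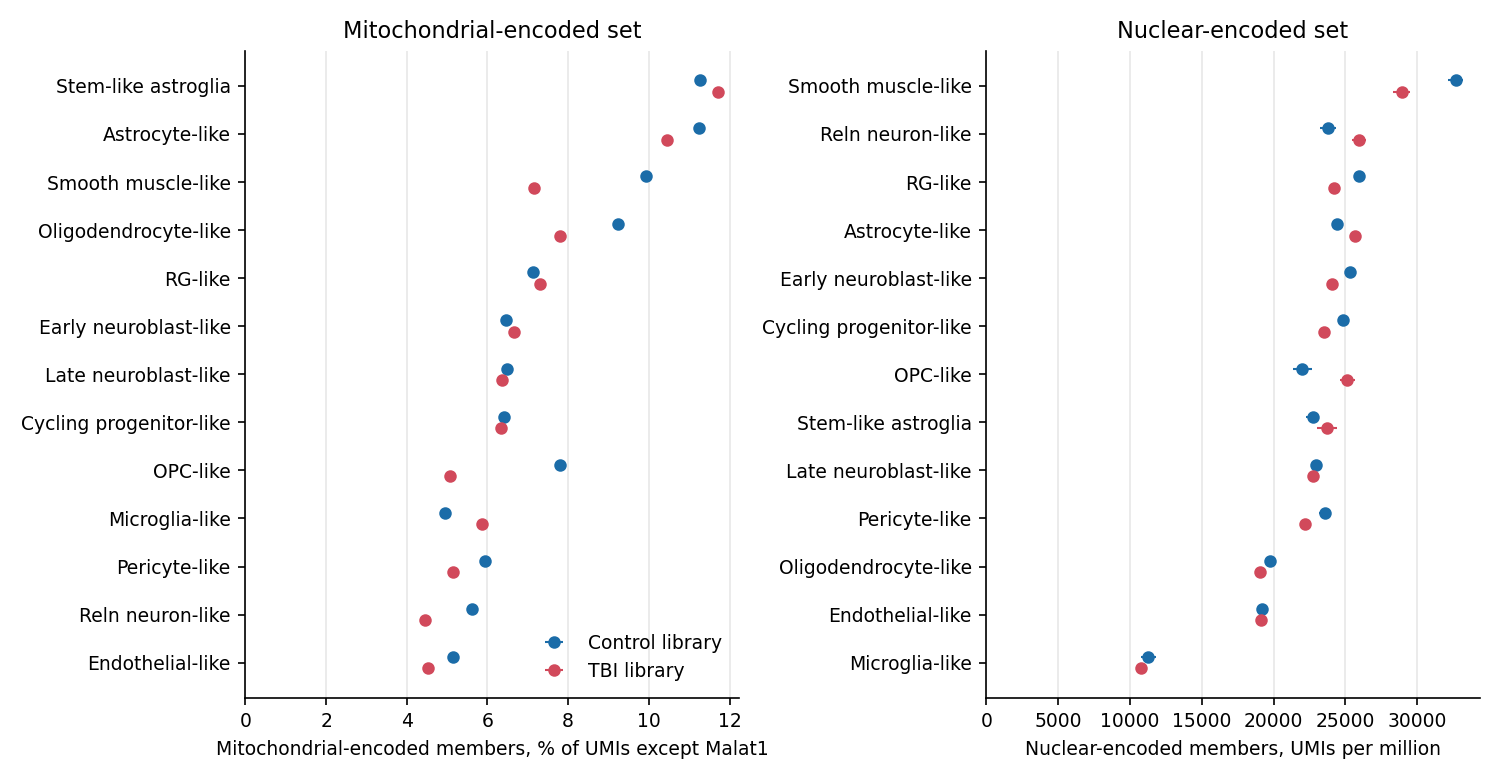
The left panel plots the mitochondrial-encoded genes as a percentage of all UMIs except Malat1 and the right panel the nuclear-encoded genes in UMIs per 1000000, for 13 classes in the Control (blue) and TBI (red) library, with exact 95% counting intervals as bars, and with classes ordered within each panel. Stem-like astroglia were highest on the left, with 11.3% and 11.7%, and smooth muscle-like cells on the right, with 32683 and 28909, while microglia-like cells were lowest on the right, with 11284 and 10746.

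The nuclear-encoded set followed another order. Its summed level was highest in smooth muscle-like cells, at 32683 UMIs per 1000000 in Control and 28909 in TBI, and lowest in microglia-like cells, at 11284 and 10746. Over both libraries the highest class was 2.86-fold above the lowest. The other 11 classes lay between 19020 and 25916 in both libraries, and many neighbours in the order changed places between the libraries, so that 2 of 13 classes kept their rank, with a Spearman correlation of 0.709 between the libraries over the classes. Stem-like astroglia, which led the mitochondrial-encoded share, were in the middle at 22715 and 23682, and oligodendrocyte-like cells, which were among the highest there, were near the bottom at 19752 and 19020.

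Microglia-like cells, named for the resident macrophages of the brain, were at the low end, although this depended on how cells were weighted. Of the 78 nuclear-encoded genes, 63 were more than 1.5-fold lower in microglia-like cells than in all other named cells in both libraries and 0 were higher, against 53.4% of all 12997 genes compared that were lower and 10.9% that were higher. The median log2 difference of the 78 genes was -1.09 in Control and -1.21 in TBI, against -0.48 and -0.70 over all genes. The level in microglia-like cells was the lowest of the 13 classes for 69 of the 78 genes, or 88.5%, against 39.2% of all genes (lowest or tied at 0). All 5 complexes shared this, with summed levels in microglia-like and smooth muscle-like cells of 3200 and 10160 for complex I, 253 and 785 for complex II, 1186 and 3227 for complex III, 3142 and 8713 for complex IV, and 3125 and 8317 for complex V. The low level was not shared by the ribosomal protein genes, another large set of abundant housekeeping transcripts, whose summed level in microglia-like cells was 142260, next to 150192 in RG-like cells and 25676 in astrocyte-like cells.

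Among the genes that did not pass the 1.5-fold limit in microglia-like cells were Cox4i1, the ubiquitous isoform of a regulatory subunit of complex IV, Cox7a2l, which tethers complexes III and IV to each other, and Atp5g2, which encodes the c subunit of the ATP synthase ring. Cox7a2l had a level of 389 in Control and 531 in TBI in microglia-like cells. Microglia-like cells numbered 38 in Control and 90 in TBI, in 2 clusters that differed. The summed nuclear-encoded level was 9537 in the larger cluster, led by Cx3cr1 and C1qa, and 20337 in a cluster of 47 cells with a median of 1608 UMIs that was led by Ccl5, Lyz2 and Cd52. With single cells weighted equally in place of summed UMIs, 44 of the 78 genes were lower, which is 56.4% against 56.8% of all genes under the same weighting. The count over the 78 genes was thus above the background in summed UMIs and at the background when each cell counted alike.

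Smooth muscle-like cells were at the other end. Here 16 of 78 genes, or 20.5%, were more than 1.5-fold higher than in all other named cells in both libraries and 2 were lower, against 12.1% and 36.9% of all genes. The 16 genes included all parts of the chain: Ndufa5, Ndufa13, Ndufb7, Ndufb10 and Ndufs7 of complex I, Sdhb and Sdhc of complex II, Uqcr10 and Uqcrb of complex III, Cox4i2, Cox6c and Cox8a of complex IV and Atp5a1, Atp5b, Atp5d and Atp5g3 of complex V. The 2 lower genes were Ndufc2 and Atp5s. Of the 78 genes, 34 had their highest level of all classes in smooth muscle-like cells, which is 43.6% against 5.75% of all genes. The class held 65 Control and 62 TBI cells.

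The other 11 classes had fewer genes past 1.5-fold than microglia-like cells. Oligodendrocyte-like cells, which make myelin, had 17 lower and 1 higher, against 50.3% and 12.7% of all genes, and endothelial-like cells 10 lower and 3 higher, against 40.5% and 14.7%. Astrocyte-like cells had 7 higher and 3 lower, against 20.1% and 34.9%, and pericyte-like cells 7 higher and 3 lower, against 16.4% and 31.7%. In the neurogenic classes 1 to 3 genes were higher and 1 to 3 lower in each, of 78 compared. The background was 14.6% higher and 26.9% lower in RG-like, 12.1% and 34.3% in cycling progenitor-like, 9.99% and 29.8% in early neuroblast-like and 15.3% and 31.7% in late neuroblast-like cells. Reln neuron-like cells had 2 higher and 1 lower against 13.9% and 24.4%, OPC-like cells 1 higher and 2 lower against 13.4% and 21.2%, and stem-like astroglia 3 higher and 2 lower against 15.2% and 24.2%. Cox4i2 was among the lower genes of each of these classes except pericyte-like cells. It was the only lower gene in RG-like, cycling progenitor-like, early neuroblast-like and Reln neuron-like cells. Of its 2818 UMIs, 2381 were in pericyte-like and 299 in smooth muscle-like cells. These cells were part of the comparison of every other class, so its lower calls follow from them and do not describe those classes, microglia-like cells included. Cox7a2l, higher in early and late neuroblast-like cells, was among the lower genes of astrocyte-like, oligodendrocyte-like and OPC-like cells.

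The nuclear-encoded genes varied less between classes than most genes did. The level in the highest class was a median of 3.41-fold that in the lowest for the 78 genes, with a 10th and 90th percentile of 2.24 and 5.49. It was 10.5-fold for the 12995 other genes with at least 100 UMIs and 5.55-fold for the 1766 of those with a similar number of UMIs. This is a description of levels, with no test.

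**Figure D2:**
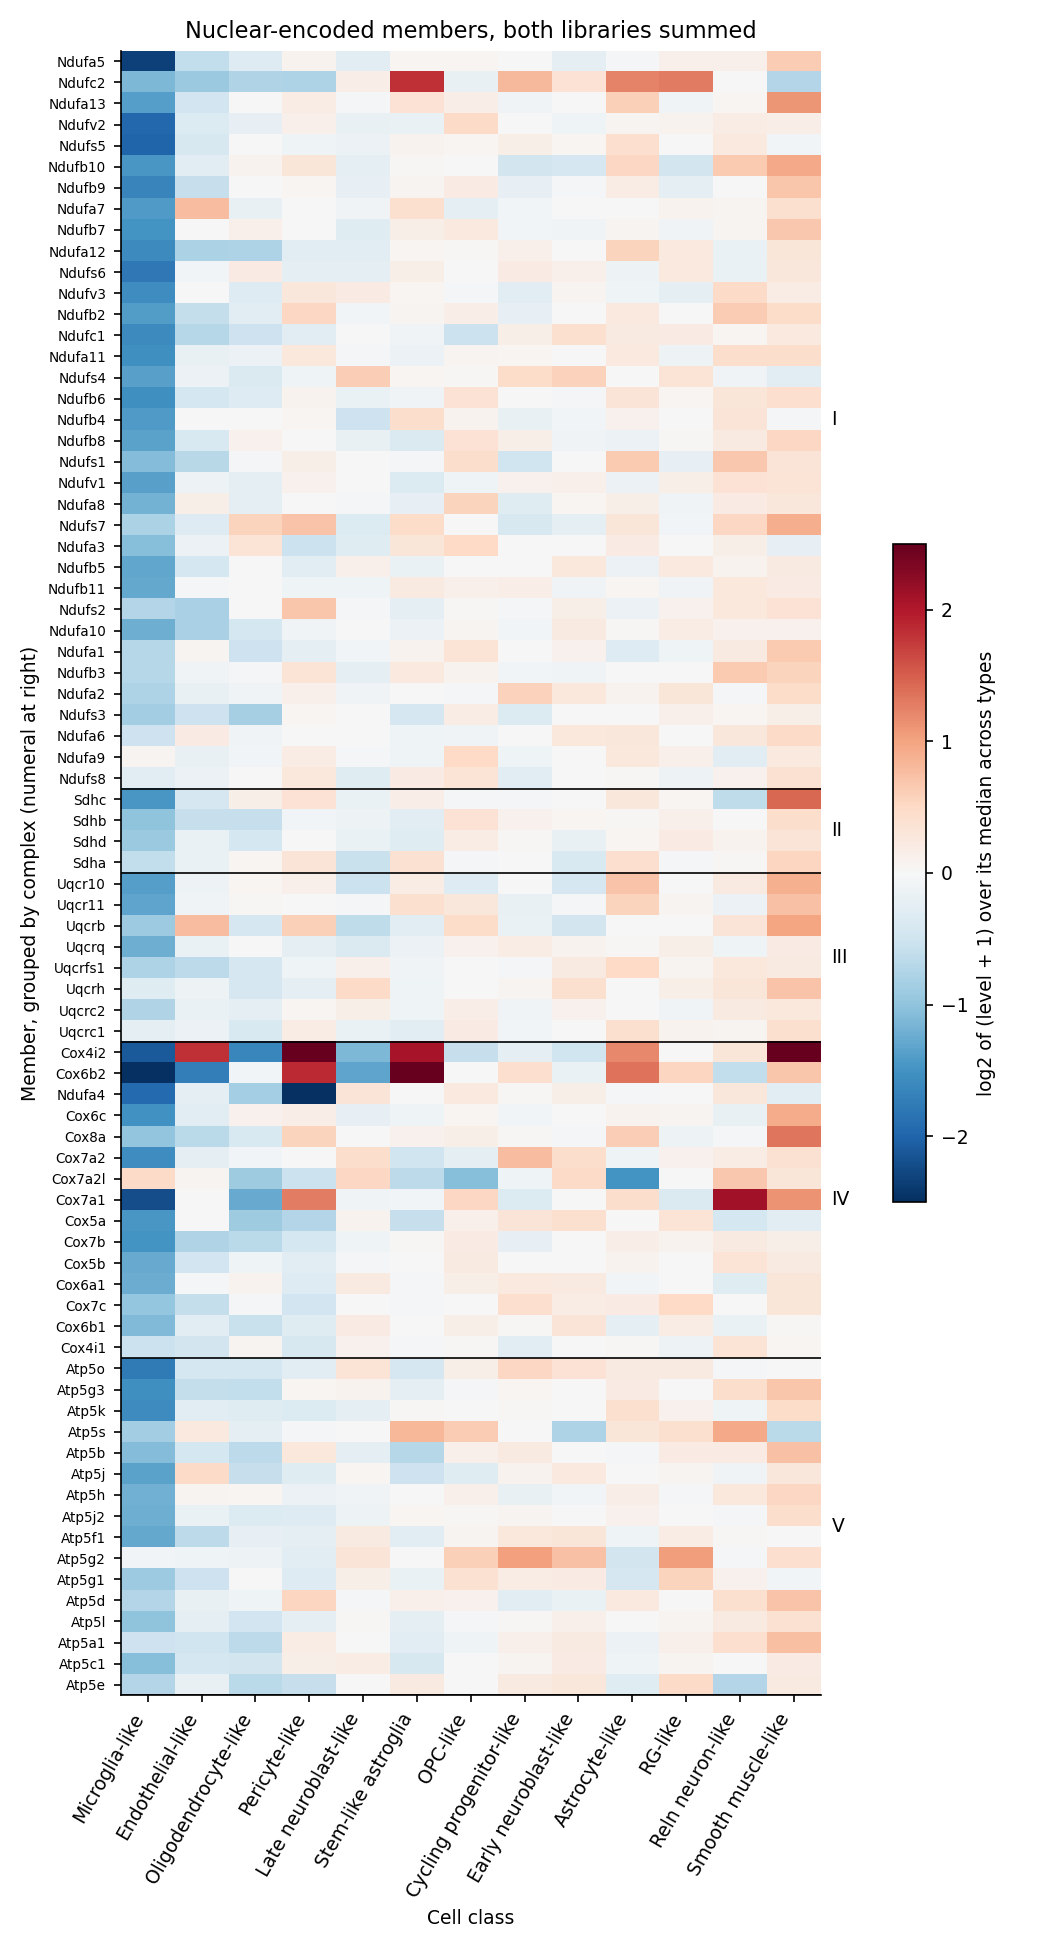
Each row is a nuclear-encoded gene with at least 100 UMIs, grouped by complex I to V, and each column 1 of 13 classes, with the 2 libraries summed. The colour is the log2 of the level plus 1 over the gene's median across classes, and the microglia-like column is blue for most genes while the smooth muscle-like column is mostly red, with Cox4i2, Cox6b2, Cox7a1, Ndufa4 and Ndufc2 departing from the rest.

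Within complex I, the NADH dehydrogenase, the genes with the widest range were Ndufa5, Ndufc2 and Ndufa13. Ndufa5, an accessory subunit of the peripheral arm, had 390 and 312 UMIs per 1000000 in smooth muscle-like cells of the Control and TBI library and 22.2 and 54.3 in microglia-like cells, an 8.03-fold range over both libraries. The microglia-like level of Ndufa5 rested on 27 UMIs over both libraries. Ndufa13, known also as Grim19, had 912 and 922 in smooth muscle-like and 167 and 163 in microglia-like cells. Both followed the summed set.

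Ndufc2 (ENSMUSG00000030647, chr7:97400003-97407802 on the plus strand of GRCm38), an accessory subunit of the membrane arm, did not. It was highest in stem-like astroglia, at 1496 and 1526, and was also high in RG-like and astrocyte-like cells, with 1049 and 998 over both libraries. It had 742.8 in cycling progenitor-like, 544 in early and 476 in late neuroblast-like cells, and 254 in smooth muscle-like cells, where the summed level of the complex was highest. The RG-like, astrocyte-like and stem-like classes thus had summed levels of Ndufc2 above those of the neuroblast-like, vascular and oligodendrocyte-like classes. The astrocyte-like clusters did not share this level, with 1868 in cluster 6 and 113 in cluster 15, which are compared below. The annotation places Gm16053 on the same strand within the gene, so some of its reads could be split.

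Complex II links the chain to the citric acid cycle through succinate dehydrogenase. Its 3 genes with the widest range were Sdhc, Sdhb and Sdhd, all highest in smooth muscle-like and lowest in microglia-like cells. Sdhc, a membrane anchor, had 238 and 242 in smooth muscle-like cells and 27.8 and 33.0 in microglia-like cells. Sdhb, the iron-sulfur subunit, had 223 and 209 against 111 and 66.1, and Sdhd, the other anchor, 109 and 86.3 against 38.9 and 42.5. The range over classes was smaller for Sdhb and Sdhd, at 2.73-fold and 2.42-fold, than for Sdhc, at 7.61-fold. The microglia-like levels rested on few UMIs over both libraries, 19 of Sdhc, 48 of Sdhb and 25 of Sdhd.

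Complex III passes electrons from ubiquinol to cytochrome c. Its small subunits Uqcr10, Uqcr11 and Uqcrb had the widest range of the 8 nuclear-encoded genes. Uqcr10 had 544 and 388 in smooth muscle-like and 94.5 and 101 in microglia-like cells. Uqcr11 had 557 and 375 against 100.01 and 123, and Uqcrb 585 and 501 against 156 and 146. Both libraries thus placed the same classes at either end, with a wider gap in Control.

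In complex V the genes with the widest range were Atp5o, Atp5g3 and Atp5k. Atp5o (ENSMUSG00000022956), the stalk subunit that confers oligomycin sensitivity, was highest in cycling progenitor-like cells, at 481 and 471, and had 77.8 and 106 in microglia-like cells. Atp5g3 had 411 and 355 in smooth muscle-like and 94.5 and 77.9 in microglia-like cells. Atp5k, a small membrane subunit, had 383 and 242 against 128 and 59.0.

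The 3 genes for the c subunit, Atp5g1, Atp5g2 and Atp5g3, encode the same mature protein with different import sequences, and the classes used them in different proportions. Atp5g2 gave 60.8% of the UMIs of the family in microglia-like, 57.2% in cycling progenitor-like and 54.2% in RG-like cells over both libraries. It gave 36.7% in Reln neuron-like and 35.7% in astrocyte-like cells, where Atp5g3 gave 33.7% and 37.4%. Atp5g1 ranged from 22.6% in smooth muscle-like to 35.3% in oligodendrocyte-like cells. Because 3′ counting rests on the end of each transcript, these are shares of UMIs, not corrected for transcript length or mapping.

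Complex IV, cytochrome c oxidase, had the most class-restricted genes, and these were tissue isoforms. Cox4i2 (ENSMUSG00000009876, chr2:152754173-152765037, plus strand), known as the isoform induced by low oxygen in lung and vessels, was a pericyte-like gene here. Its level was 962 (887 to 1040) in Control and 937 (894 to 982) in TBI in pericyte-like cells, from 621 and 1760 UMIs. It was 302 and 524 in smooth muscle-like cells, 9.46 and 17.3 in endothelial-like cells and 20.3 and 10.4 in stem-like astroglia. No UMI was found among 128 microglia-like cells, where 3 UMIs would be a level of 16.7 in Control and 7.08 in TBI. In each of the other 8 classes the level was 10.03 or less in both libraries.

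Its partner Cox4i1 (ENSMUSG00000031818, chr8:120668222-120674207, plus strand), the ubiquitous isoform, was at 712 and 796 in pericyte-like cells and between 628 and 1382 in all 13 classes. The annotation places Gm20388 over Cox4i1 on the same strand, so some of its reads could be split. Cox4i2 thus gave 57.4% (54.4 to 60.4) of the UMIs of the pair in pericyte-like cells of the Control library and 54.1% (52.3 to 55.8) in TBI. It gave 22.1% (18.9 to 25.5) and 33.6% (29.4 to 38.1) in smooth muscle-like cells, 1.89% in endothelial-like cells over both libraries and 1.69% or less in the rest. Cox4i2 was thus concentrated in the mural cells, the pericytes and smooth muscle cells that wrap vessels, and gave most of the pair in pericyte-like cells of both libraries.

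The isoforms were found in the same cells. UMIs of both Cox4i1 and Cox4i2 were present in 147 of 206 Control (71.4%) and 467 of 642 TBI (72.7%) pericyte-like cells, and in 45 of 65 (69.2%) and 52 of 62 (83.9%) smooth muscle-like cells. Before thinning, 84.0% of all 206 Control and 84.3% of all 642 TBI pericyte-like cells had a Cox4i2 UMI. When each cell was thinned to 2000 UMIs and shallower cells were left out, 146 of 181 Control pericyte-like cells (80.7%) and 432 of 566 TBI cells (76.3%) had one. Oligodendrocyte-like cells, which should lack the gene, had 0 of 472, which allows a share of up to 0.778%, and 3 of 958 (0.313%). The median depth was 3586.5 and 3015.5 UMIs in pericyte-like and 10811 and 8680.5 in oligodendrocyte-like cells before thinning.

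The pericyte-like clusters did not all hold the same share. In the 2 largest, Cox4i2 gave 61.4% and 56.6% of the pair in Control and TBI, and 50.2% and 58.5%. It gave 50.0% and 33.5% in a cluster of 98 cells with a median of 1335 UMIs, and 16.7% and 25.5% in a cluster of 15 cells. In smooth muscle-like cells the share was 17.8% and 26.6% in the cluster led by Acta2 and Tagln and 45.0% and 50.7% in a smaller one of 35 cells.

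Pericyte-like cells were also low in Ndufa4, a subunit of complex IV despite its name, and high in Ndufa4l2, its hypoxia-induced paralogue, which the symbol rule does not include. Ndufa4 (ENSMUSG00000029632, chr6:11900292-11907497, minus strand) had 846 and 853 UMIs per 1000000 in late neuroblast-like cells and 51.1 (35.2 to 71.8) and 77.7 (65.6 to 91.4) in pericyte-like cells, a 12.0-fold range over both libraries. Ndufa4l2 had 1846 and 1772 in pericyte-like cells, which was 97.3% and 95.8% of the UMIs of the pair. In smooth muscle-like cells it was 456 and 962, or 40.8% and 69.7%, and in endothelial-like cells 15.0 and 30.6, or 2.58% and 5.02%. In the other 10 classes Ndufa4l2 was at 12.4 or less in both libraries. Higd1b, a mitochondrial inner membrane protein of the hypoxia-inducible family, had the same pattern, with 2148 and 2274 in pericyte-like and 403 and 1102 in smooth muscle-like cells. None of Cox4i2, Ndufa4l2 and Higd1b was among the markers that named a class, but Ndufa4l2 and Higd1b were not withheld from the clustering, so their pattern is a description of the clusters.

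**Figure D3:**
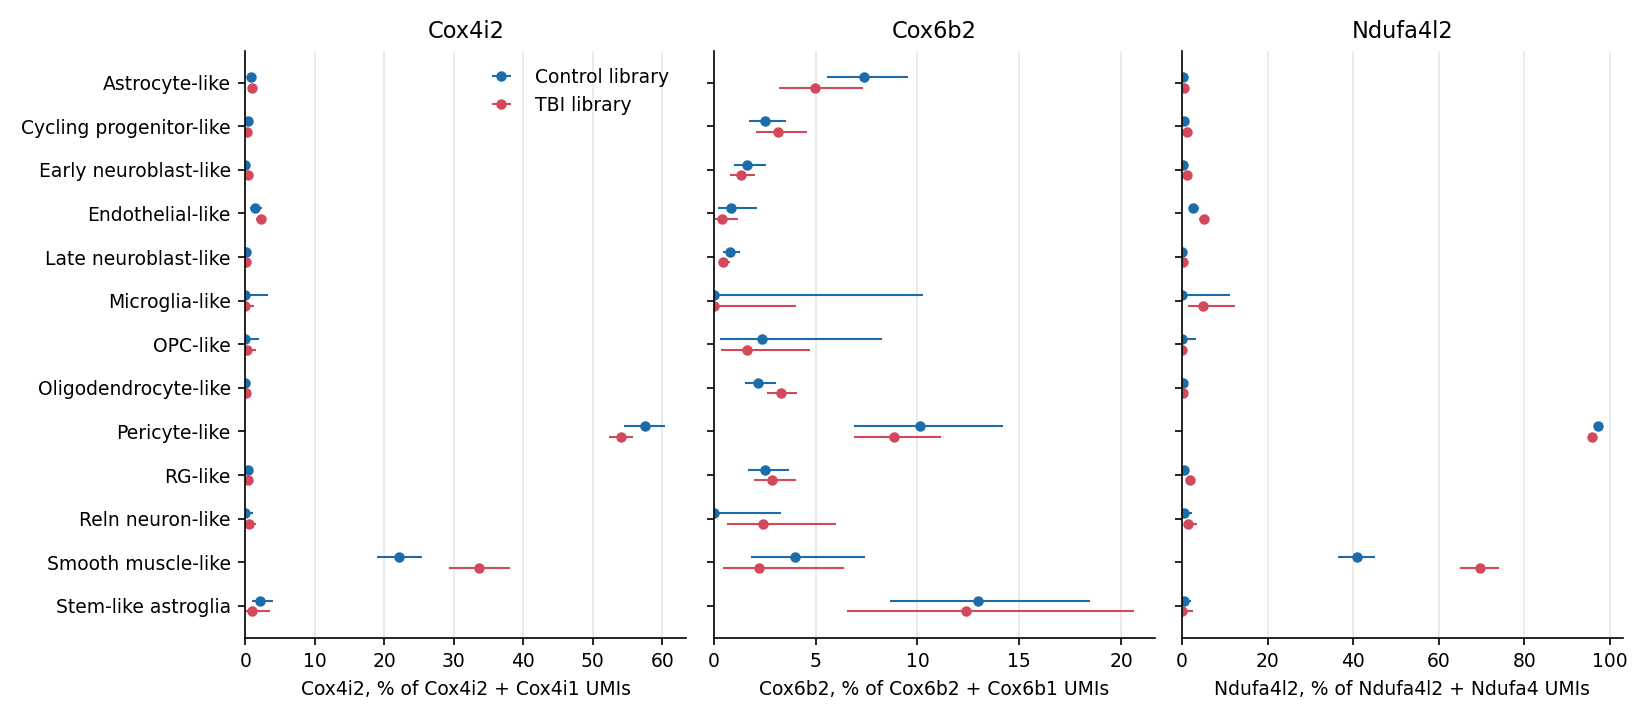
The 3 panels plot Cox4i2, Cox6b2 and Ndufa4l2 as a percentage of the UMIs of the isoform and its partner, in 13 classes of the Control (blue) and TBI (red) library, with exact 95% intervals as bars. Cox4i2 and Ndufa4l2 stand out in pericyte-like cells, at 57.4% and 97.3% in Control, and to a lesser degree in smooth muscle-like cells, while Cox6b2 is highest in stem-like astroglia, pericyte-like and astrocyte-like cells.

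Cox6b2, described as the testis isoform of a subunit of complex IV, was low, with UMIs in every class except microglia-like cells. It had 65.9 and 62.5 UMIs per 1000000 in stem-like astroglia, and gave 12.8% of the UMIs of Cox6b1 and Cox6b2 there over both libraries. It gave 9.21% in pericyte-like and 6.41% in astrocyte-like cells, and 0 of 123 UMIs in microglia-like cells, which allows up to 2.95%. Cox7a1, the heart and muscle isoform, was at most 3.95% of the Cox7a1 and Cox7a2 UMIs in any class and library, except in Reln neuron-like cells of TBI. There it gave 12 of 194 UMIs, or 6.19% (3.24 to 10.6), against 1 of 156, or 0.641%, in Control. Of the 49 UMIs of Cox7b2, 26 were in astrocyte-like cells, where they were 2.39% of the Cox7b pair. Cox6a2 and Cox8b, the other heart and muscle isoforms, stayed at or under 0.257% of their pairs over both libraries, apart from 3 Cox6a2 UMIs against 74 of Cox6a1 in microglia-like cells.

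The promoters of the nuclear-encoded genes were searched for the core sequences of factors known to control respiratory genes, in the 300 bases from 250 before to 50 after each start in the RefSeq table of GRCm38.p6. The table held 66 of the 83 genes. The core of nuclear respiratory factor 1, GCATGCGC, was present on either strand in 10 of 66 (15.2%) against 3.39% of all 19407 genes. The ETS core CCGGAAG, bound by the GA-binding protein, was in 15 (22.7%) against 11.1%, and the YY1 core AAGATGGCG in 6 (9.09%) against 1.87%. Any of the 3 was in 26 (39.4%) against 15.3%. Matches of the first core on the 2 strands can overlap, as they do in Atp5k. The promoters of 3 genes are shown as examples. Atp5k and Uqcr11 held both of the first cores, as did Atp5l, Cox6a1 and Sdhb, which are not shown. Ndufa4, the gene with the widest range in complex IV outside the tissue isoforms, held none. The 3 promoters are written 5′ to 3′ on the minus strand of their genes, with matched letters in capitals, for chr5:108434350-108434649, chr10:80406772-80407071 and chr6:11907401-11907700.
Atp5k: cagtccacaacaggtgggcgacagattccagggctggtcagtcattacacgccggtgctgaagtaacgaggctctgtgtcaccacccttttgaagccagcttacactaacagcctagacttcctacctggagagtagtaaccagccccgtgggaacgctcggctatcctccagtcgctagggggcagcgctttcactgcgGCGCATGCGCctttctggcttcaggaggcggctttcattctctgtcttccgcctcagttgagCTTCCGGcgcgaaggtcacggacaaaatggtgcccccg
Uqcr11: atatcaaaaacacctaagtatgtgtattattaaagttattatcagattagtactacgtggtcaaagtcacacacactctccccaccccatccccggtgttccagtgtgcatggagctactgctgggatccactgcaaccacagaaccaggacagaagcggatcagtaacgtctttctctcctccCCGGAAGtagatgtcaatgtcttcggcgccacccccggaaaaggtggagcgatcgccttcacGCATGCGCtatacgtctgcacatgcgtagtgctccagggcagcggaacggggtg
Ndufa4: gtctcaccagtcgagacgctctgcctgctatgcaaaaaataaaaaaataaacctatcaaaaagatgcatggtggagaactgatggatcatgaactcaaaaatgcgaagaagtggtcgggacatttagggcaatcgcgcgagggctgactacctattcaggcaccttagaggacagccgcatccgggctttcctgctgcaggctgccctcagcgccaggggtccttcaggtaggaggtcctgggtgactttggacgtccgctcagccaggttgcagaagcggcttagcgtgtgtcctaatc
A match is only an occurrence of these letters. Cox4i1 and Cox4i2 are named without a promoter sequence.

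The other genes of the pathway, which assemble, regulate or complete the chain, were less uniform. Of 45 compared assembly factors, the chaperones and cofactor-insertion proteins of the complexes, 27 (60%) were lower and 1 higher in microglia-like cells, where 53.4% of all genes were lower. In oligodendrocyte-like cells 18 (40%) were lower and 2 higher, where 50.3% of all genes were lower, and in each other class at most 7 were higher and 5 lower. In microglia-like cells their median log2 difference was -0.75 in Control and -1.12 in TBI, against -0.48 and -0.70 over all genes. Of 20 regulators of mitochondrial biogenesis and transcription, 12 (60%) were lower and 0 higher in oligodendrocyte-like cells, against 50.3% and 12.7% of all genes. In microglia-like cells 4 (20%) were lower and 2 higher, against 53.4% and 10.9% of all genes.

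Ppargc1a, the coactivator that drives mitochondrial biogenesis, was at 189 and 153 in astrocyte-like cells, 90.3 and 91.7 in Reln neuron-like and 38.0 and 78.1 in stem-like astroglia, and at 28.9 or less in the other 10 classes. Its paralogue Ppargc1b was in mural cells instead, at 44.9 and 64.4 in pericyte-like and 77.1 and 113 in smooth muscle-like cells and at 17.4 or less elsewhere. Tfam, which packages and transcribes mitochondrial DNA, ranged only from 22.2 to 88.3 over all classes and libraries. Of the 10 compared respiratory genes outside the symbol rule, 7 (70%) were lower in microglia-like cells, against 53.4% of all genes. These included Ndufa4l2 and Higd1b, which were lower in every class except pericyte-like and smooth muscle-like cells, where they were higher. Their calls in microglia-like cells follow from those cells and do not describe microglia-like cells. Cycs, cytochrome c, ranged from 50.0 and 99.1 in microglia-like cells to 274 and 299 in smooth muscle-like cells.

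The astrocyte-like class joined clusters that differed in the nuclear-encoded level by more than the classes did. Of its 4 clusters, 1 had a nuclear-encoded level of 46308 in Control and 48560 in TBI with 16.4% and 15.2% mitochondrial-encoded UMIs, and another 5901 and 7458 with 15.6% and 16.9%. The other clusters had 18367 and 19612, and 31570 and 29385, with shares between 7.57% and 8.45%. The 2 extreme clusters thus had a like, high mitochondrial-encoded share but nuclear-encoded levels at opposite ends, in both libraries.

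These clusters are set side by side because their summed nuclear-encoded levels were the extremes of the class, so the folds of single genes only describe that choice. They ran from 1.11-fold for Ndufs1 to 16.5-fold for Ndufc2. The ribosomal protein genes, which did not enter the choice, were also higher in the first cluster, with 76 of 76 past 1.5-fold and a median of 5.74-fold, where 42.0% of all 2005 genes compared were higher and 42.6% lower. Malat1 moved the other way. It made 0.473% and 0.338% of the UMIs in the cluster with the high level and 20.9% and 22.0% in the cluster with the low level. A late neuroblast-like cluster showed the first pattern as well, with a nuclear-encoded level of 39755 and 36175, a share of 14.8% and 14.4%, and Malat1 at 0.0376% and 1.07%. The part of RNA quality in these differences was not tested. Without these clusters and the small microglia-like one, the astrocyte-like nuclear-encoded level of TBI was 0.917 times that of Control, against 1.05 with them.

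Over all 41 clusters the summed nuclear-encoded level spanned 10.4-fold, against 2.86-fold over classes. The Spearman correlation of the nuclear-encoded level with the Malat1 percentage was -0.51, that with the summed level of the ribosomal protein genes 0.46, and that with the mitochondrial-encoded percentage -0.08. These points share 2 libraries and differ in depth and cell number, and the values are descriptions.

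**Figure D4:**
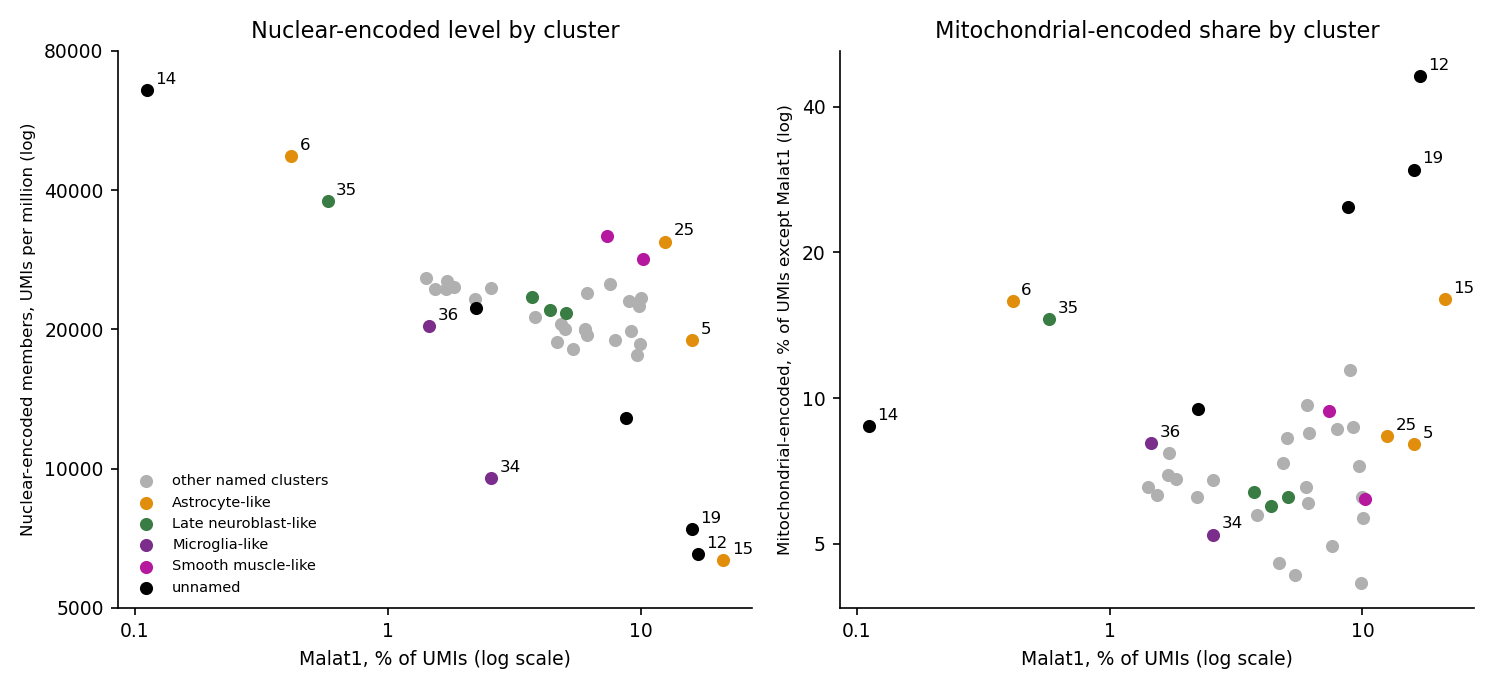
Each point is 1 of 41 clusters with both libraries summed, with Malat1 as a percentage of UMIs on the x axis and the nuclear-encoded level (left) or mitochondrial-encoded percentage (right) on the y axis, all on log scales. Astrocyte-like clusters 6 and 15, late neuroblast-like cluster 35 and the unnamed clusters 12, 14 and 19 lie apart, and the nuclear-encoded level was lower in clusters with more Malat1, with a Spearman correlation of -0.51.

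The mitochondrial-encoded share also moved with depth. Cells were split at 2000, 5000 and 10000 UMIs, keeping bins of at least 20 cells, which left 18 groups of class and library with 2 or more bins. The share was higher in the shallowest than in the deepest bin in 14 of 18, by a median of 1.44-fold. The nuclear-encoded level was higher in the shallowest bin in 9 of 18, with a median ratio of 1.01. In astrocyte-like cells of the Control library the share fell from 17.7% under 2000 UMIs to 8.21% from 5000 UMIs, in pericyte-like cells from 16.5% to 6.03%, and in oligodendrocyte-like cells of TBI from 15.9% between 2000 and 5000 UMIs to 7.13% from 10000 UMIs. Smooth muscle-like cells went the other way, from 9.39% to 10.7% in Control and from 5.72% to 7.68% in TBI. So did endothelial-like cells of Control, from 5.01% to 5.28%, and microglia-like cells of TBI, from 5.12% to 5.73%.

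The mitochondrial-encoded set was made up mostly of the UMIs of complexes IV and V. In all cells, mt-Atp6, the proton channel subunit of ATP synthase, gave 22.2% of the set in Control and 23.5% in TBI, and its small neighbour mt-Atp8 0.381% and 0.346%. The 3 catalytic subunits of complex IV gave 20.2% and 19.04% (mt-Co3), 13.4% and 13.7% (mt-Co2) and 12.4% and 12.5% (mt-Co1). Cytochrome b, mt-Cytb, gave 10.3% and 10.5%. Of the complex I subunits, mt-Nd4 gave 6.98% and 7.01%, mt-Nd2 6.15% and 5.74%, mt-Nd1 3.80% and 3.81%, mt-Nd3 2.31% and 1.85%, mt-Nd5 1.12% and 1.14% and mt-Nd4l 0.785% and 0.752%. The only subunit on the minus strand, mt-Nd6, gave 0.0817% and 0.0685%. These shares count captured 3′ ends and were not corrected for length.

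Across classes and libraries the share of a gene in the set ranged from 1.254-fold for mt-Atp6 to 2.76-fold for mt-Nd6, the rarest. The widest range of an abundant gene was that of mt-Nd2, with 9.91% in astrocyte-like cells of TBI and 4.20% in cycling progenitor-like cells of TBI. Cycling progenitor-like cells of TBI had the lowest share of all for mt-Nd1, mt-Nd2, mt-Nd3, mt-Nd4l, mt-Nd6 and mt-Atp8, whereas mt-Co1 was highest in cycling progenitor-like cells of Control, at 14.7%, and lowest in pericyte-like cells, at 8.36%.

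The TBI library was compared with the Control library within each class, the comparison that the study's design was made for. The mitochondrial-encoded share was lower in TBI in 9 of 13 classes, with counting intervals below 1, and higher in 4. It was 0.652 times (0.638 to 0.666) the Control share in OPC-like cells, oligodendrocyte precursors, with 7.80% and 5.08%. It was 0.722 times in smooth muscle-like, 0.792 in Reln neuron-like, 0.845 (0.842 to 0.848) in oligodendrocyte-like, 0.867 in pericyte-like and 0.876 in endothelial-like cells, and 0.931 in astrocyte-like cells. It was 1.19 times (1.16 to 1.21) in microglia-like cells, with 4.94% and 5.86%. In the neurogenic classes and stem-like astroglia the ratio was between 0.981 and 1.04. With 1 library a condition, no test of these ratios was possible.

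Depth per cell and other cell types moved with some of these ratios. TBI cells were shallower in 11 of the 13 classes, while the share was higher in shallow cells in most groups. The exceptions were microglia-like cells, with a median of 4553.5 UMIs in Control and 5828 in TBI, and OPC-like cells, with 5435.5 and 6580. In microglia-like cells of TBI the share was higher in the deeper bin, at 5.73% against 5.12% in the shallower. Of 19 bins of class and depth with at least 20 cells in each library, in 10 classes, 18 had a ratio on the same side of 1 as their whole class, although depth was not matched within a bin. Oligodendrocyte-like cells had ratios of 0.801 from 5000 to 10000 UMIs and 0.820 above. Smooth muscle-like cells had 0.818 from 5000 to 10000, nearer to 1 than the 0.722 of the whole class. Late neuroblast-like cells had 0.763 from 2000 to 5000 but 0.992 and 0.980 in the deeper bins, and early neuroblast-like cells 0.998 from 5000 to 10000, against 1.03 in the whole class. The OPC-like, microglia-like and Reln neuron-like classes had no bin with enough cells in both libraries.

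Markers of other cell types also differed between the libraries in several classes, and their part in these ratios was not tested. In smooth muscle-like cells, where the ratio was 0.722, the 7 pericyte markers summed to 4010 UMIs per 1000000 in Control and 11161 in TBI, with all 7 found in both. The 8 oligodendrocyte markers summed to 1326 and 219 there, with Ermn at 0 in TBI. In pericyte-like cells, where it was 0.867, the oligodendrocyte markers summed to 2591 and 4214, and in Reln neuron-like cells, where it was 0.792, to 2144 and 292, with all 8 found in both libraries. Early neuroblast markers summed to 1313 and 448 in Reln neuron-like cells, and late neuroblast markers to 1643 and 766. Other lists went the other way in Reln neuron-like cells, with endothelial markers at 62.5 and 347 and pericyte markers at 69.5 and 302. In endothelial-like cells, where the ratio was 0.876, the 5 erythroid markers summed to 9733 and 1692, with Alas2 at 0 in TBI. In OPC-like cells, the 8 oligodendrocyte markers summed to 26126 UMIs per 1000000 in the 26 Control cells, 36.1% of their level in oligodendrocyte-like cells, and to 5913, or 7.72%, in the 55 TBI cells. All 8 had UMIs in TBI and all but Ermn in Control. Early neuroblast markers went the other way in OPC-like cells, at 52.8 and 416, as did late neuroblast markers, at 122 and 335. Leaving out cells above 10% mitochondrial-encoded UMIs moved the OPC-like ratio to 0.837. The part of the oligodendrocyte and neuroblast RNA in the OPC-like ratio was not tested.

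The nuclear-encoded set changed little between the libraries. Its level was higher in TBI in 4 of 13 classes, with counting intervals above 1, and lower in 9, of which 6 had intervals below 1. It ran from 0.885 times (0.861 to 0.908) in smooth muscle-like to 1.14 times in OPC-like cells. In the neurogenic classes it was 0.935 in RG-like, 0.946 in cycling progenitor-like, 0.951 in early and 0.992 in late neuroblast-like cells, and in astrocyte-like cells it was 1.05. The ratios of the 2 sets lay on opposite sides of 1 in 6 of 13 classes. The mitochondrial-encoded ratio was under 1 and the nuclear-encoded above it in OPC-like (0.652 and 1.14), Reln neuron-like (0.792 and 1.09) and astrocyte-like cells (0.931 and 1.05). The reverse was seen in microglia-like (1.19 and 0.952, the latter with an interval of 0.904 to 1.004), RG-like (1.03 and 0.935) and early neuroblast-like cells (1.03 and 0.951). Some of these ratios depended on the processing. Under alternatives given below, a ratio crossed 1 in astrocyte-like, RG-like and microglia-like cells. In early neuroblast-like cells from 5000 to 10000 UMIs the ratios were 0.998 and 1.005.

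Single nuclear-encoded genes were compared in a class where both libraries together held 100 UMIs or more and neither held under 10, which gave 866 pairs of gene and class. Of these, 11 were more than 1.5-fold higher and 7 more than 1.5-fold lower in TBI, in 6 classes, and 7 classes had 0, among them astrocyte-like (background 0.911% higher and 1.82% lower), oligodendrocyte-like (0.891% and 0.961%) and late neuroblast-like cells (0.590% and 1.33%). The other classes without one were cycling progenitor-like (1.37% and 1.82%), early neuroblast-like (1.69% and 0.991%), endothelial-like (1.32% and 1.09%) and microglia-like cells, with 21 genes compared (4.74% and 4.52%).

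In OPC-like cells 5 of 56 genes compared were higher and 0 lower, both smaller shares than the 14.3% and 11.4% of all genes. The 5 were of complex I and rested on 27 to 46 Control UMIs each. The gene with the lowest ratio in the class, Ndufa3, was also of complex I, at 259 and 188 (0.726, 0.493 to 1.07). Ndufb5 had a level of 169 in Control and 298 in TBI (1.76-fold, 1.17 to 2.71), Ndufa11 153 and 249, Ndufa2 206 and 333, Ndufa6 143 and 226 and Ndufb8 243 and 370. Of the 12 mitochondrial-encoded genes compared, 6 were past the limit in the other direction in this class, measured per 1000000 UMIs except Malat1: mt-Nd1, mt-Nd2, mt-Nd3, mt-Co2, mt-Co3 and mt-Atp6, with ratios from 0.511 for mt-Nd3 to 0.640 for mt-Atp6.

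In smooth muscle-like cells 2 of 71 genes compared were higher and 5 lower, against 9.05% and 6.17% of all genes. Cox4i2 rose from 302 (254 to 356) to 524 (446 to 613), a ratio of 1.74, and Ndufv1, the NADH-binding subunit, from 122 to 199. Ndufa4 was lower, at 662 and 418, as were Ndufs8 at 173 and 106, Atp5k at 383 and 242, Ndufc1 at 351 and 232 and Atp5g2 at 563 and 375. The pair Cox4i2 and Ndufa4 moved in opposite directions, toward the values of pericyte-like cells, and Ndufa4l2 was at 456 and 962. The 7 pericyte markers, all with UMIs in both libraries, summed to 4010 in Control and 11161 in TBI in this class, which is 11.5% and 35.8% of their level in pericyte-like cells. Within the cluster led by Acta2 and Tagln, Cox4i2 was at 237 and 387, and within the smaller one at 718 and 965. The part of pericyte RNA in these ratios was not tested. The mitochondrial-encoded genes mt-Nd2, mt-Nd3 and mt-Nd4 had ratios of 0.642, 0.550 and 0.662.

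The remaining calls were single genes. Stem-like astroglia had 3 of 55 compared genes higher, Atp5o with 203 and 349, Cox7a2l with 183 and 302 and Ndufs6 with 180.0 and 276, against 2.99% higher and 3.46% lower of all genes. Beside this, the 7 early neuroblast markers summed to 299 in Control, with Eomes, Tac2 and Neurod4 at 0, and to 750.0 in TBI, with Neurod4 at 0, and their part was not tested. RG-like cells had 1 of 74, Ndufs8, an iron-sulfur subunit of complex I, lower at 128 and 83.0 (0.651, 0.536 to 0.789), against 1.60% and 0.942%. Beside this, the 8 oligodendrocyte markers, all with UMIs in both libraries, summed to 165 and 1136 in RG-like cells. The 7 pericyte markers summed to 12.7, with Atp13a5 and Anpep at 0, and to 142, with none at 0, and the part of both lists was not tested. Reln neuron-like cells had Ndufa3 lower at 215 and 131, from 62 and 53 UMIs, against 4.51% and 4.93%, and mt-Nd3 at a ratio of 0.566. The 8 oligodendrocyte markers, all with UMIs in both libraries, summed to 2144 and 292 in this class. The 7 early neuroblast markers summed to 1313 and 448 there, and the 6 late neuroblast markers to 1643 and 766. The 8 endothelial markers went the other way in this class, at 62.5 and 347, as did the 7 pericyte markers, at 69.5 and 302. The class's own 6 markers summed to 7060 and 9744, and the part of these lists was not tested. In pericyte-like cells, with a background of 3.92% and 1.97%, Ndufa4 had 51.1 and 77.7, a ratio of 1.52 (1.04 to 2.29). That value rested on which cells were in the class: 56 of the 146 TBI UMIs were in the cluster of 98 cells with low depth, and in the largest cluster the levels were 49.3 and 27.4. With the libraries clustered without integration the ratio was 0.647.

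**Figure D5:**
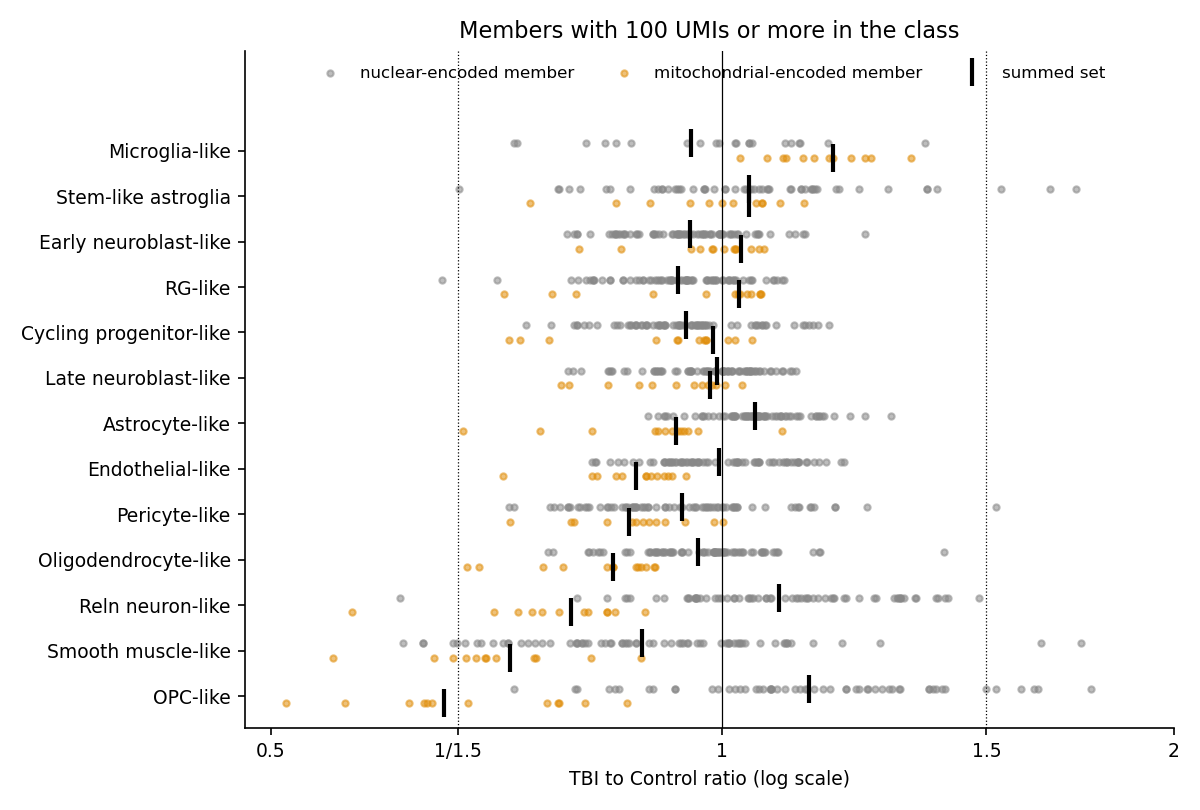
The TBI to Control ratio of each gene with at least 100 UMIs in a class, on a log axis, is plotted for nuclear-encoded (grey) and mitochondrial-encoded (orange) genes in 13 classes, with a black bar at the ratio of each summed set and dotted lines at 1.5-fold. Most grey points lie within 1.5-fold, and the orange bars run from 0.652 in OPC-like to 1.19 in microglia-like cells.

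Some genes leaned the same way in many classes, all of which share the same 2 libraries. In the composition of the mitochondrial-encoded set, mt-Nd3 made a lower share of the mitochondrial-encoded set in TBI than in Control in 13 of 13 classes, with ratios from 0.714 to 0.867 and a median of 0.780. No other mitochondrial-encoded gene did so. In oligodendrocyte-like cells it gave 2.59% and 2.07% of the set, from 13097 and 13647 UMIs, and in late neuroblast-like cells 2.42% and 1.92%. Relative to all UMIs except Malat1, mt-Nd3 was lower in 12 of 13 classes, with a median ratio of 0.722.

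Of the nuclear-encoded genes, Ndufa1, an X-linked accessory subunit of complex I, was lower in TBI in 10 of 10 classes compared, with ratios from 0.690 to 0.951. Ndufa3, another accessory subunit of complex I, was lower in 11 of 12, with a median of 0.769, and was the lowest of all nuclear-encoded genes in 5 classes. In oligodendrocyte-like cells Ndufa3 had 223 in Control and 171 in TBI, a ratio of 0.765 (0.706 to 0.829). Atp5k and Ndufb2 were lower in 11 of 12 classes, with medians of 0.825 and 0.891. Cox4i1 and Atp5d, the delta subunit of ATP synthase, were higher in 12 of 13, with medians of 1.09 and 1.14. Among genes compared in at least 10 classes, 1.49% of 67 nuclear-encoded genes were on the same side of 1 in every class, against 2.02% of all 1140 genes. With 1 class on the other side allowed, the shares were 10.4% of the nuclear-encoded, 16.7% of the 12 mitochondrial-encoded and 8.77% of all genes.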

How the data were processed

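Single-cell libraries were made with the 10x Genomics 3′ kit, version 3, from GFP-sorted dentate gyrus cells of 8-week-old mice at day 15. The deposited values are raw UMI counts per gene and cell, which the authors made with Cell Ranger 3.0.2 against GRCm38 (mm10). The study's methods give 1 pooled library per condition, so groups are libraries, and no replicate and no test between conditions was possible. The members and gene lists were chosen with earlier results of these data known.

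Cells with at least 200 genes and log UMIs within 3 median absolute deviations of the median were kept. Both libraries were integrated and clustered in Seurat 5.3.0 (R 4.3.3; 2000 variable genes, 20 dimensions, resolution 3.0) without the respiratory chain genes and Malat1. The 41 clusters were named by the mean standardised level of 17 marker lists, a scoring chosen with the data in hand, and 5 stayed unnamed. Scrublet (scanpy 1.11.5) called 38 Control and 109 TBI doublets, which were left in. Summed counts were compared in Python 3.11.15 with numpy 2.4.6 and scipy 1.17.1 (figures, matplotlib 3.10.9), with exact Poisson, Clopper-Pearson or conditional binomial 95% intervals. These cover counting error only.

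A gene was called in a class past 1.5-fold against all other named cells, in the same direction in both libraries, or past 1.5-fold between libraries with 100 UMIs or more together and no fewer than 10 in either. Thinning to 2000 UMIs left out 129 Control and 303 TBI cells. The fold calculation was checked on simulated counts with known changes. These counts held counting error only, so the check does not bear on other differences between the libraries. Genes named in the text were all 13 mitochondrial-encoded ones, in each complex the 3 nuclear-encoded ones with the largest range over classes, tissue isoforms and their partners, in each class the highest and lowest ratio and every gene past 1.5-fold, and those under 100 UMIs. Others named (Ndufs1, Cox7a2l in microglia-like cells, Tfam and the directions across classes) were chosen after their values were seen. Positions are from GENCODE vM21 and promoters from RefSeq. The alternatives tried were other cell filters, doublets left out, other clusterings, thinning, cell weighting, denominators, fold limits and count minimums.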

Additional observations from a re-analysis of the deposited data

Results flagged for a closer look

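The TBI to Control ratio of the mitochondrial-encoded share went in opposite directions in 2 small classes, at 1.19 in microglia-like and 0.652 in OPC-like cells. With 1 library a condition, the difference between these ratios was not tested. All 12 mitochondrial-encoded genes compared had a ratio above 1 in microglia-like cells and 0 of 12 in OPC-like cells, against 54.07% and 59.98% of all genes. These genes are parts of the summed share, and the 2 classes were set side by side for its highest and lowest ratio. The counts therefore only describe that choice and are not separate evidence.

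Some sets of cells outside the named classes carried signals beyond those of any class. Unnamed cluster 12, whose markers were nearest to oligodendrocytes, had 46.3% mitochondrial-encoded UMIs, with 49.3% in Control and 43.4% in TBI, and a nuclear-encoded level of 6523. Unnamed cluster 19, nearest to astrocytes, had 29.7% and a nuclear-encoded level of 7410. Unnamed cluster 14, led by Ttr, a transcript of the choroid plexus, had a nuclear-encoded level of 65665 with 8.74% mitochondrial-encoded UMIs and 0.112% Malat1.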

How the results depend on the processing

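No paired analysis was possible because the animals of a condition were pooled into 1 library, so that the replicate numbers in the labels match no column. The TBI to Control ratio of the mitochondrial-encoded share kept its direction in 9 of 13 classes under all alternatives run, and that of the nuclear-encoded level in 8 of 13. The OPC-like ratio of 0.652 ran from 0.466 with thinned cells to 0.837 without cells over 10% mitochondrial UMIs, the smooth muscle-like from 0.693 to 0.782 and the microglia-like from 1.15 to 1.28. Ratios near 1 crossed it. For the mitochondrial-encoded share this happened in cycling progenitor-like (1.01 thinned, 1.00295 as a mean of cells), RG-like (0.944 and 0.963) and stem-like cells (0.977 thinned) and in late neuroblast-like cells (1.02 without cells over 10%). For the nuclear-encoded level it happened in astrocyte-like cells (0.980 without integration, 0.917 without clusters 6, 15, 35 and 36), microglia-like cells (1.03 thinned, 1.04 without those clusters), endothelial-like cells (1.00247 over all UMIs), late neuroblast-like cells (1.01 at resolution 1.0) and stem-like astroglia (0.971 without cells over 10%). The 5 classes at the same rank for the mitochondrial-encoded share became 3 without doublets, with thinned cells, over all UMIs or without those 4 clusters, 2 at resolution 1.0 and 1 as a mean of cells. The 156 nuclear-encoded calls by class became 322 at the lower fold limit. The 18 TBI to Control calls became 9 without cells over 10%, 7 with thinned cells, 101 at the lower fold limit and 54 with no count minimum, and 17 of the 18 kept their direction. The exception was Ndufa4 in pericyte-like cells (0.647 without integration). The Cox4i2 share of 54.9% in pericyte-like cells became 57.6% with no cell filter, 57.9% without doublets, 56.7% with the members in the clustering and 58.4% without clusters 9, 13, 30, 37 and 40. Leaving out clusters was chosen after seeing the data, and the cause of these changes was not tested. The single pooled library a condition leaves every ratio without a replicate, and some classes were small, with 26 Control OPC-like and 33 Control Reln neuron-like cells.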

Other observations

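Beyond the classes described, 2 of the unnamed clusters were led by hemoglobin genes, and their mitochondrial-encoded shares were 24.8% in cluster 24 and 9.47% in cluster 26. Cox17, the copper chaperone of complex IV, was at 154 in Control and 104 in TBI in oligodendrocyte-like cells, 1 of 2 assembly factors, with Coa4, above 1.5-fold there in both libraries. Between the libraries, only the following compared genes of the pathway lists outside the symbol rule passed 1.5-fold. Ttc19 was higher in TBI in pericyte-like cells, 1 of 17 assembly factors compared, against 3.92% of all genes. Gabpb1 was lower in endothelial-like cells, 1 of 8 regulators compared, against 1.09%. Ndufa4l2 and Higd1b were higher in smooth muscle-like cells, 2 of 7 respiratory genes compared, against 9.05%. The pericyte markers summed to 4010 and 11161 in smooth muscle-like cells, and their part was not tested. In mitochondrial UMIs per nuclear-encoded respiratory UMI, the classes ran from 2.08 in Reln neuron-like cells to 5.42 in microglia-like and 5.59 in stem-like cells.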
